A study of Canis lupus familiaris with 12 samples.

Results

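BAK1, BCL2L1, CASP9 and MDM2 are 4 genes of the mitochondrial route to cell death and of the p53 circuit. They were taken as every non-control probe of the array whose RefSeq transcript belongs to the dog gene of that name, which gave 4 probes, 1 per gene, out of 43603 probes on the array and 944 genes that a RefSeq name could be given to. The probes are A_11_P0000020240 for BAK1 (NM_001020808), A_11_P051106 for BCL2L1 (NM_001003072), A_11_P0000031040 for CASP9 (NM_001031633) and A_11_P0000019824 for MDM2 (NM_001003103). With 1 probe per gene, no second probe could be set beside any of the 4 results.

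In the mitochondrial pathway, BAK1 and its relative BAX can oligomerise in the outer mitochondrial membrane and open it, and BCL2L1, whose long form is BCL-XL, holds them in check. Cytochrome c that escapes through the opened membrane assembles the apoptosome, on which the initiator caspase CASP9 is activated. MDM2 is the ubiquitin ligase that marks p53 for degradation and is itself a transcriptional target of p53. In kidney tubule epithelium this pathway is known for its part in cell loss after injury.

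The line used was MDCK (Madin-Darby canine kidney), which derives from dog kidney and forms an epithelium in culture. It was grown to confluence and then kept without serum for a day before the experiment. The acid group was held for 24 h in medium of pH 7.0, reached by less bicarbonate, and the control group for 24 h in medium of pH 7.4. Both groups came from the same line in the same serum-free setting. Each of 3 biological replicates gave 1 RNA per medium, and each RNA was hybridised to 2 one-colour Agilent arrays, so that 12 arrays hold 3 RNAs at pH 7.0 and 3 at pH 7.4. The study asked about proinflammatory genes, and the values below address what happened to the 4 apoptosis genes in the same RNAs.

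The share of probes well above background was 49.4% to 54.1% on the 4 arrays of biological replicate 2 and 62.2% to 70.4% on the other arrays. Each biological replicate had a slide of its own, so the comparison of media was made within slides, but a slide cannot be told apart from a biological replicate. In replicate 1 the pH 7.4 arrays held slide positions 1 and 2 and the pH 7.0 arrays 3 and 4, and in replicate 3 the reverse. Medium and position cannot be told apart there. Of the epithelial markers, the tight junction genes OCLN, TJP1 and CGN were well above background on all 12 arrays, and the claudin gene CLDN2 on 5 of the 6 pH 7.0 arrays and 3 of the 6 pH 7.4 arrays. Among markers of other cells, the collagen genes COL1A1 and COL1A2 and VWF, the endothelial von Willebrand factor gene, were well above background on all 12 arrays. For PDGFRB this held on 5 of the 6 arrays of either medium, for CD8A on 4 arrays at pH 7.0 and 3 at pH 7.4, for CD4 on 3 at pH 7.0 and 2 at pH 7.4, for KDR on 1 at pH 7.0 and 2 at pH 7.4, and for DCN on 0 at pH 7.0 and 1 at pH 7.4. UMOD, the uromodulin of the thick ascending limb, was well above background on 0 arrays, and was the only kidney tubule marker sought with a named probe. Other markers sought, among them CDH1, EPCAM, KRT8, PTPRC and PECAM1, had no named probe. Markers with several probes are given by the brightest. The part of these markers in the results was not tested.

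BAK1, the pore former, had the highest estimate of the 4 genes. In log2 signal relative to the 75th percentile of the array, the 3 RNAs from pH 7.0 stood at 1.55, 1.71 and 2.27, and the 3 RNAs from pH 7.4 at 1.05, 0.90 and 1.25, in the order of the biological replicates. All RNAs from pH 7.0 lay above all RNAs from pH 7.4, so the groups did not overlap. In RNA from a whole culture, more RNA of a gene per cell and more cells that express it cannot be told apart. Over all tested probes, 4.49% had the 3 RNAs from pH 7.0 above the 3 from pH 7.4 in this way. The group means were 1.84 ± 0.38 at pH 7.0 and 1.07 ± 0.17 at pH 7.4 (SD, n = 3 RNAs each).

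Within the biological replicates the log2 difference for BAK1, pH 7.0 minus pH 7.4, was 0.50, 0.81 and 1.02. The mean difference was 0.78 ± 0.23 (SE of the limma fit), a 1.71-fold higher signal at pH 7.0, with a 95% confidence interval from 0.27 to 1.29. The limma test across all probes, with the biological replicate as a block, gave an unadjusted p of 0.00702 and a Benjamini-Hochberg adjusted p of 0.223. BAK1 therefore did not pass the threshold of 0.05 once the 27138 tested probes were taken into account. The fit called 0 probes, or 0% of those tested, at that threshold, while 3328 had an unadjusted p under 0.05. A higher signal with an unadjusted p under 0.05 was found for 6.51% of the tested probes, and BAK1 was the only one of the 4 genes among them. On the 3 BAK1 differences alone, an exact two-sided sign-flip permutation test gave p = 0.25, the smallest that 3 pairs allow.

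**Figure D1:**
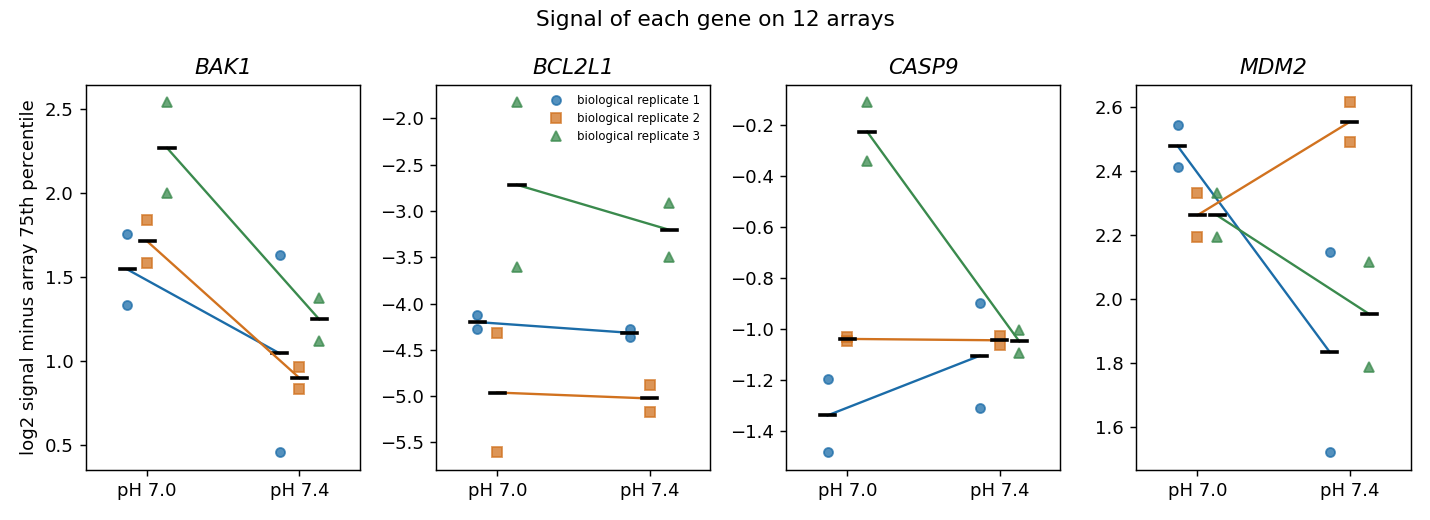
Log2 signal relative to the array's 75th percentile (vertical axis, a separate scale per panel) of BAK1, BCL2L1, CASP9 and MDM2, at pH 7.0 on the left and pH 7.4 on the right of each panel. Points are single arrays, 2 per RNA, black bars are RNA means, and lines join the RNAs of a biological replicate. The 3 BAK1 lines run downwards from pH 7.0 to pH 7.4, while MDM2 and CASP9 have lines in both directions. The BCL2L1 lines, in a panel with a wider scale, run downwards by 0.12, 0.06 and 0.49 in the order of the replicates.

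On single arrays the BAK1 groups did overlap. The processed signal of BAK1 ran from 1472 over a median of 1947 to 4687 intensity units on the 6 arrays at pH 7.0, and from 736 over a median of 1304 to 2939 on the 6 arrays at pH 7.4. After scaling, the highest array at pH 7.4, array 2, had a log2 signal of 1.63. That exceeded arrays 1 and 3 at pH 7.0, at 1.33 and 1.58. The other 5 arrays at pH 7.4 lay between 0.46 and 1.38, and only the highest of these, array 5, exceeded an array at pH 7.0, which was array 1.

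The 2 arrays of the pH 7.4 RNA in biological replicate 1 disagreed most for BAK1. They read 0.46 and 1.63, a gap of 1.17 that is wider than the difference between media in that replicate. This RNA also had the poorest agreement of duplicate arrays over all tested probes, with a median absolute difference of 0.47, against 0.17 to 0.39 for the other 5 RNAs. Without array 1 at pH 7.4, the BAK1 difference in biological replicate 1 was -0.09 and the mean over the 3 replicates 0.58 ± 0.25 (limma adjusted p = 0.338). Without array 2 at pH 7.4, it was 1.09 in that replicate and 0.97 ± 0.26 over all 3 (limma adjusted p = 0.420). In biological replicates 2 and 3 the gaps between duplicate arrays were 0.26 and 0.54 at pH 7.0 and 0.13 and 0.26 at pH 7.4. Each was smaller than the difference between media there, which was 0.81 and 1.02.

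The BAK1 spot was not saturated on any of the 12 arrays and was well above background on all of them. Its median pixel signal was between 16.7 and 181 times the local background. That background was flagged as an outlier on 2 arrays, array 3 at pH 7.0 and array 4 at pH 7.4, both of biological replicate 2. The spot lies in row 523 of 532 and column 10 of 85, near an edge of the array. The 164 tested probes with spots within 10 rows and 10 columns of it had a median change of 0.02, with quartiles of -0.19 and 0.24. The surrounding probes as a group thus had a change near that of all tested probes, whose median was 0.01.

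BCL2L1, the restraint on BAK1, was dim, and its difference was small beside the spread of its arrays. The 3 RNAs from pH 7.0 stood at -4.20, -4.96 and -2.72 log2 units relative to the array's 75th percentile, and those from pH 7.4 at -4.32, -5.02 and -3.20. In this background-subtracted signal the order followed the biological replicate more than the medium. Both RNAs of replicate 3 lay above all others and both of replicate 2 below. The spot was not well above background on the arrays of replicate 2, so their low place cannot be read as a lower RNA level. Before background subtraction their median pixel signals, 112 to 137, were above those of replicate 1, 67.5 to 84. Under normexp background correction the arrays of replicate 2 also read above those of replicate 1. The group means were -3.96 ± 1.14 at pH 7.0 and -4.18 ± 0.92 at pH 7.4 (SD, n = 3 RNAs each).

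Within the replicates BCL2L1 differed by 0.12, 0.06 and 0.49, with a mean of 0.22 ± 0.23 and a 95% confidence interval from -0.28 to 0.73. The limma adjusted p was 0.745. The BCL2L1 spot was called well above background on 4 of the 6 arrays of either medium, and the arrays that fell short were the 4 of biological replicate 2. Its raw signal was between 1.69 and 10.3 times the local background. Arrays 5 and 6 at pH 7.0, hybridised with the same RNA, read -1.83 and -3.61, and this gap of 1.78 is wider than any difference between media for the gene. Without array 5 at pH 7.0 the mean difference was -0.07 ± 0.23 (limma adjusted p = 0.929). With all arrays kept, it was -0.43 ± 0.41 under normexp background correction with an offset of 50 (limma adjusted p = 0.714).

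CASP9, the initiator caspase, showed no shared direction. Its RNAs from pH 7.0 stood at -1.34, -1.04 and -0.23, and those from pH 7.4 at -1.11, -1.05 and -1.05. The control values lay close together (-1.07 ± 0.03, SD, n = 3 RNAs), and the values at pH 7.0 spread to both sides of them (-0.87 ± 0.58, SD, n = 3 RNAs). The differences within the biological replicates were -0.23, 0.01 and 0.82.

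The mean CASP9 difference was 0.20 ± 0.26, with a 95% confidence interval from -0.39 to 0.78 and a limma adjusted p of 0.818. Duplicate arrays of CASP9 were 0.02 to 0.41 apart, so the 0.82 of biological replicate 3 was wider than any duplicate gap of this gene. Without that replicate the mean was -0.11 ± 0.28 (limma adjusted p = 0.971). CASP9 was well above background on all 12 arrays, with a processed signal from 201 over a median of 307 to 746 at pH 7.0 and from 197 over a median of 321 to 507 at pH 7.4.

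MDM2, the p53 ligase, also went in both directions. Its RNAs from pH 7.0 stood at 2.48, 2.26 and 2.26, and those from pH 7.4 at 1.83, 2.55 and 1.95. The 3 RNAs from pH 7.0 were alike (2.33 ± 0.13, SD, n = 3 RNAs), while the control RNA of biological replicate 2 exceeded them all and the other controls lay below (2.11 ± 0.39, SD, n = 3 RNAs). The differences within the replicates were 0.64, -0.29 and 0.31.

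The mean MDM2 difference was 0.22 ± 0.25, with a 95% confidence interval from -0.34 to 0.78 and a limma adjusted p of 0.779. In biological replicate 1 the duplicate arrays of the pH 7.4 RNA read 1.52 and 2.15, a gap of 0.62 that is close to the difference between media. The lower of these was array 1, the array that was also lowest for BAK1. Without biological replicate 1 the mean was 0.01 ± 0.29 (limma adjusted p = 0.996). MDM2 was bright, 57.0 to 158 times its local background, and unsaturated on all 12 arrays.

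**Figure D2:**
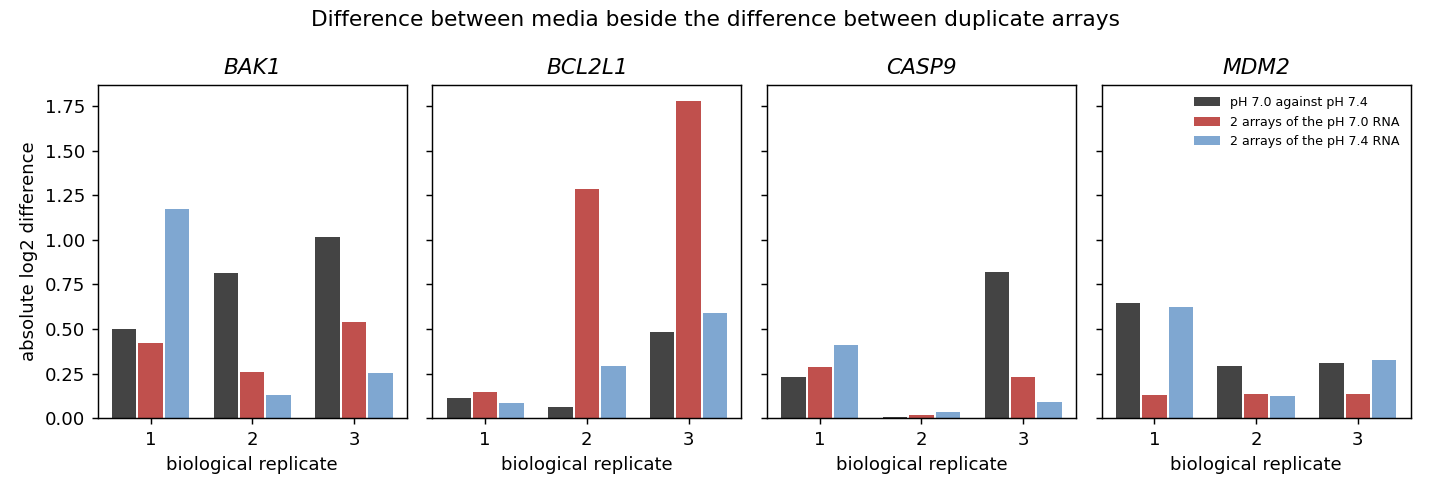
Absolute log2 difference between media within each biological replicate (dark bars) beside the absolute log2 difference between the duplicate arrays of the pH 7.0 RNA (red) and of the pH 7.4 RNA (blue), for each gene. For BAK1 the dark bar is the tallest in biological replicates 2 and 3 and not in replicate 1, where the duplicate arrays at pH 7.4 differed by 1.17, and for BCL2L1 a duplicate gap is the tallest bar in every replicate.

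Of the 4 genes, 2 were higher at pH 7.0 in all 3 biological replicates, BAK1 and BCL2L1, where 18.1% of all tested probes were. For BCL2L1 the value of replicate 2 comes from 4 arrays on which it was not well above background, and without array 4 at pH 7.0 it was -0.58. The median change of the 4 genes was 0.22, and that of all tested probes, with a gene name or without, 0.01. The intervals of BCL2L1, CASP9 and MDM2 include 0 and extend to 0.73, 0.78 and 0.78 on the higher side, so a difference of the size estimated for BAK1 lies near or within their upper limits.

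Whether BAK1 differed from the other 3 genes was tested on the differences themselves. The BAK1 change exceeded the BCL2L1 change by 0.38, 0.75 and 0.53 in the biological replicates (mean 0.55 ± 0.18, SD, n = 3; exact two-sided sign-flip permutation p = 0.25), where the 0.75 of replicate 2 is measured against a BCL2L1 spot not well above background. It exceeded the CASP9 change by 0.73, 0.81 and 0.20 (mean 0.58 ± 0.33, SD, n = 3; exact two-sided sign-flip permutation p = 0.25). Against MDM2 the excess differed in sign between replicates, at -0.15, 1.10 and 0.71 (mean 0.56 ± 0.64, SD, n = 3; exact two-sided sign-flip permutation p = 0.5). A p of 0.25 is the smallest that 3 pairs allow, so no such difference could pass 0.05. The 3 comparisons share the BAK1 values.

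Across the 6 RNAs the levels of the 4 genes were related to different degrees. Pearson's r was 0.70 between BAK1 and CASP9, 0.65 between BCL2L1 and CASP9, and 0.56 between BAK1 and BCL2L1. MDM2 had r of 0.13 with BAK1, -0.04 with CASP9 and -0.36 with BCL2L1. The 6 RNAs share 3 slides, and these values describe the RNAs only.

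Other genes of the pathway were sought in a list of 74 genes with the 4 included, of which 13 had a named probe, all of them bright enough to test. The adjusted threshold was passed by 0 of the 13, against the 0% of all tested probes, and an unadjusted limma p under 0.05 by 1, BAK1, where 12.3% of all tested probes had one in either direction. By sign, 10 of the 13 were higher and 3 lower at pH 7.0, with a median change of 0.09, against 0.01 for all tested probes. Without the 4 genes, 6 of 9 were higher and the median was 0.04. The share of all tested genes that were higher by sign is not given here, so these counts show no lean of the pathway. At an unadjusted limma p under 0.05, 63 of the 599 named tested genes were higher and 21 lower.

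In the BCL2 family 4 relatives of BAK1 and BCL2L1 were measured, and none passed, with limma adjusted p from 0.902 to 0.960. BAX, the other pore former, was at 0.05 ± 0.25 (limma adjusted p = 0.958), with -0.29, -0.10 and 0.55 in the biological replicates, and its second probe at 0.14. MCL1, a short-lived guard that also binds BAK1, was at 0.09 ± 0.22, and BAD, a BH3-only antagonist of BCL2L1, at 0.04 ± 0.22. BCL2, the founding survival gene of the family, was at -0.13 ± 0.29 and ranged from -0.99 in biological replicate 1 to 0.45 in replicate 3.

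CASP8, the initiator caspase of the death receptor route, was at -0.004 ± 0.24. DIABLO, a mitochondrial protein that antagonises the caspase inhibitors once released, was at 0.01 ± 0.22. The inhibitor genes had larger estimates that also failed the test. BIRC3, which encodes cIAP2, was at 0.53 ± 0.24 (limma adjusted p = 0.408), with its second probe at 0.92, and was higher in all 3 biological replicates. BIRC2, which encodes cIAP1, was at -0.40 ± 0.23 (limma adjusted p = 0.520) and lower in all 3. BIRC5, or survivin, a gene of dividing cells, was at 0.26 ± 0.22 (limma adjusted p = 0.696) and higher in all 3. Of the list of p53 and its targets, MDM2 was the only gene with a named probe, and the others of that list were not analysed here.

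**Figure D3:**
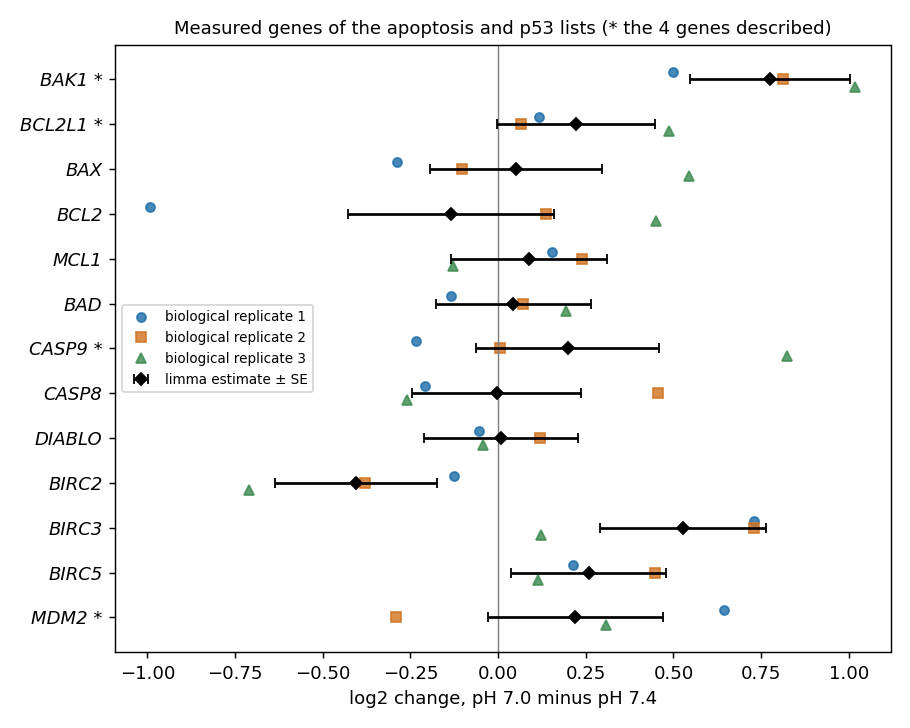
Log2 change, pH 7.0 minus pH 7.4 (horizontal axis), of the 13 measured genes of the apoptosis and p53 lists, in list order down the page. Black diamonds are limma estimates with their SE, and coloured points the 3 biological replicates. Each gene is shown by its brightest probe, and by these BAK1 at 0.78 has the highest estimate and BIRC2 at -0.40 the lowest, although the second BIRC3 probe, not drawn, was at 0.92, and the spread between replicates is widest for BCL2.

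The named genes whose levels over the 6 RNAs were most like each of the 4 were ranked by Pearson's r among 598 other tested genes. For BAK1 they included PPARD, a nuclear receptor for fatty acids (0.96), and RAB5C, an early endosome GTPase (0.96). PPARD had a change of 0.54 ± 0.23 and RAB5C of 0.44 ± 0.22. For BCL2L1 they were PTGES2 (0.99), BAD (0.99) and the thrombomodulin gene THBD (0.99), with changes of 0.08 ± 0.22, 0.04 ± 0.22 and 0.29 ± 0.23. For CASP9 they were the copper pump gene ATP7B (0.95), RHOA (0.95) and the myosin gene MYH1 (0.93), and for MDM2 ARHGEF2 (0.95), the integrin gene ITGB3 (0.87) and F2RL1 (0.87). With 6 RNAs on 3 slides and 598 candidates, high values of r are easily reached, and they are given as a description.

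**Figure D4:**
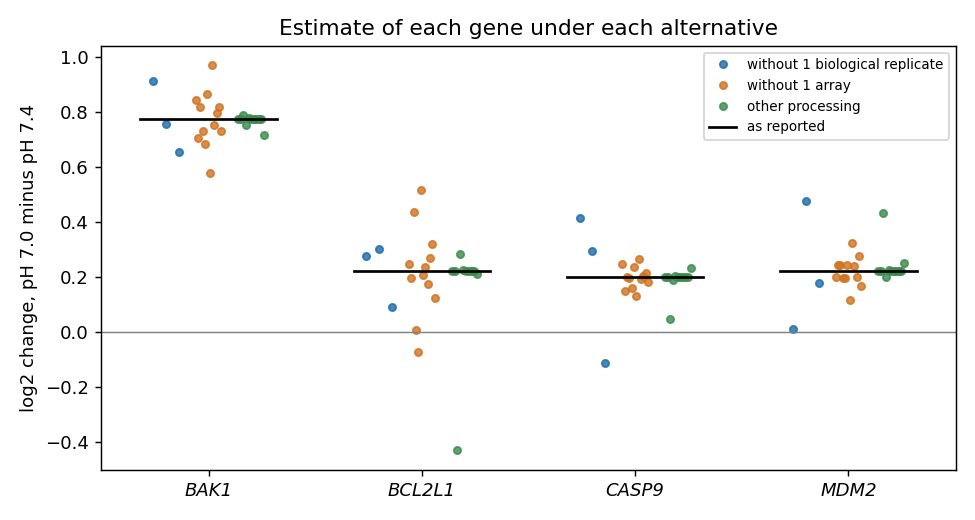
Estimated log2 change, pH 7.0 minus pH 7.4 (vertical axis), of each gene as reported (black line) and under every alternative: without 1 biological replicate (blue), without 1 array (orange) and with other processing (green). All BAK1 estimates lie between 0.58 and 0.97, while those of BCL2L1 and CASP9 fall on both sides of 0 and those of MDM2 come down to 0.01.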

How the data were processed

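Total RNA labelled with Cy3 was measured on one-colour Agilent dog arrays. Scans were read with Agilent Feature Extraction 10.7.3.1, per the submitters' processing notes. The deposited scanner files give, per spot, the intensity as a background-subtracted processed signal and as the median of the pixels, and the local background, per the file headers. A deposited table of log2 values states neither scale nor centring. It matched the processed signal minus the 75th percentile and minus the probe's median over 12 arrays, with a slope of 1.00 for each column. The medians of the columns, arrays 1 to 6 in turn, stood at -0.11, -0.15, 0.23, 0.21, -0.23 and 0.02 for the pH 7.0 arrays and 0.02, -0.21, 0.21, 0.08, -0.09 and 0.07 for the pH 7.4 arrays. It holds no ratios, so no direction applies.

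Control spots were left out, 128 outlier spots were set to missing and spots of a probe were averaged. The processed signal on the log2 scale, less the 75th percentile of its array, was analysed for probes with a spot well above background on at least 6 of 12 arrays. Arrays 1 and 2, 3 and 4, and 5 and 6 of a group, by title, were taken as duplicates of 1 RNA and averaged. This assignment rests on the shared start of the file names and the design text. Media were compared with limma 3.58.1 in R 4.3.3 (constant prior, 9.68 moderated degrees of freedom), with the biological replicate as a block, by a two-sided test whose p-values were adjusted (Benjamini-Hochberg) over every tested probe. The fit was run on simulated data with independent noise drawn from its own fitted prior. That checks the code and does not test slide effects, duplicate gaps or dim probes. The pairing was checked by correlating, across probes, how far the 2 RNAs of a biological replicate lay from their groups' means: r was 0.39, 0.64 and 0.81. A shared slide cannot be told apart from a shared extraction here. Replicates are separate extractions from 1 line. The limma p-values, SEs and intervals combine the spread of a probe's own 3 pairs with a prior variance estimated over all tested probes. They do not measure the spread between the replicates of 1 gene alone, and 3 pairs limit them.

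Symbols came from RefSeq transcripts of the dog assembly UU_Cfam_GSD_1.0, without version numbers, for 1484 probes. The array files name no build, so no coordinates are given. Genes named are the 4 genes, the measured genes of the pathway lists, each by its brightest tested probe, and the 3 genes most alike by Pearson's r for each, of which 1 is not reported here. The genes and lists were chosen with earlier results of these data known. Alternatives covered the replicate block, duplicate arrays, normexp, scaling, the value table, filters, the prior, and leaving out replicates and arrays. Figures used python 3.11.15 and matplotlib 3.10.9.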

Additional observations from a re-analysis of the deposited data

How the results depend on the processing

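BAK1 was higher at pH 7.0 under all 26 alternatives run without passing in any, with estimates of 0.58 to 0.97 and limma adjusted p from 0.103 to 1.00. The lowest adjusted p came with the 12 arrays fitted singly. The highest came without the replicate block, where the estimate of 0.78 had an SE of 0.31, against 0.23 in the paired fit. BCL2L1, CASP9 and MDM2 did not pass under any alternative run for them either. BCL2L1 was -0.43 under normexp with an offset of 50, and 0.21 with the array's median background for the 8 and 3 spots lying over 50 units below their own on arrays 3 and 4 at pH 7.4, a setting chosen after seeing the data. Leaving out 1 replicate or array gave -0.075 to 0.52 for BCL2L1 and -0.11 to 0.41 for CASP9. MDM2 ran from 0.01 to 0.48. Its lower signal at pH 7.0 in replicate 2 was not seen under normexp with an offset of 50. There the arrays of that replicate read 2.07 and 2.13 at pH 7.0 and 1.69 and 1.90 at pH 7.4. The mean excess of BAK1 was above 0 in all alternatives run. These reuse the arrays on which BAK1 had the highest estimate of the 4, so they give no separate evidence of a difference. Over BCL2L1 the mean excess was 1.22 under normexp and 0.51 under normexp with the median background for the low spots, against 0.55 as reported. Over MDM2 it was 0.91 without biological replicate 1 and 0.28 without replicate 2, against 0.56. Under normexp it was 0.36 over MDM2, and 0.47 with the median background for those spots. In both of these settings the excess over MDM2 was above 0 in all 3 biological replicates, unlike as reported.

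The number of probes called, 0 as reported and 3328 at an unadjusted p under 0.05, was 686 with the 12 arrays fitted singly. That fit set the correlation of duplicate arrays at 0.16, so the 2 arrays of an RNA counted nearly as separate samples. The number called was 9 with normexp, 0 with normexp and the median background for the low spots, and 24 with median scaling. It was 135 (91 higher, 44 lower) with probes above background on all 12 arrays and 135 (85 higher, 50 lower) with an intensity trend. Leaving out 1 replicate or array gave 0 to 648, the latter without biological replicate 2. It was 268 without replicate 1, 15 without array 6 at pH 7.0 and 4 without array 1 at pH 7.4. The causes were not tested. In the pathway list 0 genes passed under any of these, and 1 at an unadjusted p under 0.05. A mean over a gene's probes was not run, since each of the 4 genes has 1 probe, and BCL2L1 has no value where all 12 arrays had to be above background. Low signal over background is a limit for BCL2L1.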
